A study of Arabidopsis thaliana with 15 samples.

Results

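Roots of Arabidopsis thaliana seedlings that had spent 2 h in 5 mM hydrogen peroxide (H2O2) were compared with roots that had spent 1 h in it. The members were the 3 libraries of each of these times, 6 of the 15 libraries of the study, and every gene of the deposited count table: 14532 genes are listed and 9986 had counts high enough to be tested. All seedlings were wild type, ecotype Columbia-0, and 7 d old. Whole seedlings were treated in aqueous solution, the roots were then cut from the shoots, and each biological replicate pooled 30 to 50 seedlings. The other groups, each of 3 libraries, were roots kept in water for 1 h, in 5 mM H2O2 for 3 h, and for 2 h in a mixture of 5 mM H2O2 and 10 µM RB, an abbreviation of the labels beside which the title of the series has Rose Bengal, a photosensitising dye. Water libraries of 2 h were not analysed here, so time in H2O2 and time in solution cannot be told apart. The p-values measure the spread between these pooled samples, and in such bulk RNA fewer cells of a type and less RNA per cell cannot be told apart.

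H2O2 is both a toxic oxidant and a signal in roots. Plants meet it with enzymes that destroy it, such as catalases and ascorbate peroxidases, with glutathione S-transferases and P450 enzymes that handle the reactive products of oxidation, and with heat shock proteins that hold unfolding proteins in solution. A slower part of many stress responses is a change in metabolism, in which genes first known from darkened or sugar-starved plants turn on and amino acids are broken down or converted to asparagine for transport. A comparison of 2 exposure times asks which of these programmes still moved after the first hour.

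MARS-seq, a method that reads short tags near the 3' end of each polyadenylated transcript, was used for every library. Replicates a, b and c held 2456784, 1093238 and 1277436 counts at 2 h, and 1115902, 4464761 and 689372 counts at 1 h. Log2 CPM values (counts scaled to a common library total) of replicates correlated at 0.933 to 0.950 across genes at 2 h and at 0.890 to 0.942 at 1 h, lowest between the deepest and the shallowest library of the 1 h group. The summed CPM of 8 shoot photosynthesis genes was 351 to 509 at 2 h and 453 to 499.7 at 1 h, so some of their transcripts were counted in these roots, whereas RBCS1B was at 0 in 4 of the 6 libraries and RBCS2B in 3. What these transcripts add to any result was not tested. The summed CPM of 9 root tissue markers, among them SHR and SCR, was 192 to 228.5 at 2 h and 204 to 238 at 1 h, with the xylem marker IRX3 at 0 in 3 libraries, and no tested gene of either list changed between the times.

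Of the 9986 genes tested, 36 changed between 2 h and 1 h (0.361% of the genes tested, adjusted p under 0.05). The higher level was at 2 h for 32 genes (0.320%) and at 1 h for 4 (0.0401% lower at 2 h), and 35 of the 36 differed by at least 1 on the log2 scale. The sizes ran from 0.998 to 3.63 on that scale, with a median standard error (SE) of 0.388 over all genes tested. In all 36 the CPM of the 3 libraries of one time lay outside the range of the other, which was so for 10.9% of the genes tested. A wider set of 668 genes (6.69%) had an unadjusted p under 0.05, of which 394 were higher at 2 h (3.95%) and 274 lower (2.74%), and 47.5% of all genes tested had a log2 fold change above 0. The count rose to 87 with DESeq2 and to 75 with the log2 library total as a covariate, a fit chosen after seeing the data, so 36 is no upper limit on how many genes differed. It fell to 18 with only the libraries of the 2 groups and to 10 when every library was thinned to equal depth. It also rested on single libraries: it was 0 without 1 h replicate a (where 458 genes had an unadjusted p under 0.05 and the lowest adjusted p was 0.0585), 15 without 1 h replicate b, 19 without 2 h replicate b, 11 without 2 h replicate c, and 25 without either of the other two. Every call named below was thus lost without 1 h replicate a, while no called gene changed direction in any of the 15 other fits that gave it a value (AT3G19920 and AT4G37220 were not tested in each).

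**Figure D1:**
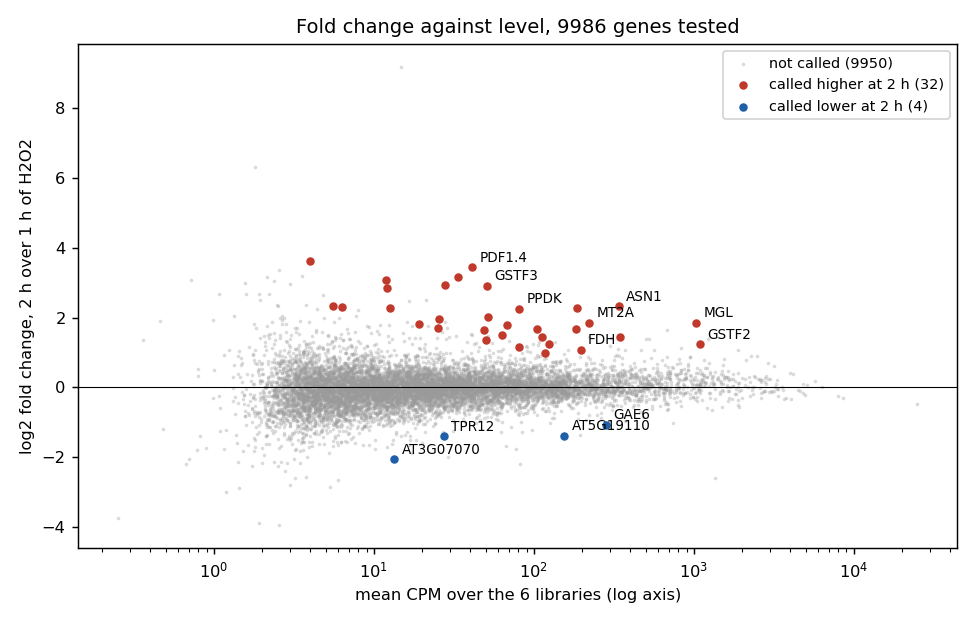
Each point is 1 of the 9986 genes tested; the x axis is its mean CPM over the 6 libraries on a log axis and the y axis the log2 fold change of 2 h over 1 h of H2O2. The 32 genes called higher at 2 h (red) reach 3.63, the 4 called lower (blue) reach -2.07, and the 9950 others (grey) include low genes with larger fitted folds.

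Genes of glutathione-dependent and oxidative detoxification were among those that rose. GSTF3 (AT2G02930, chromosome 2, 851156 to 852321, minus strand), a phi class glutathione S-transferase that joins glutathione to electrophiles, had the lowest adjusted p of all genes. It had 56.3, 98.0 and 112.8 CPM in replicates a, b and c at 2 h, against 5.53, 11.46 and 20.5 CPM at 1 h. The groups did not overlap, and 1 h replicate a was the lowest library; the log2 fold change was 2.92 ± 0.39 (SE, adjusted p = 0.00386). GSTF2 (AT4G02520), another enzyme of that class, had 1388, 1218 and 1996 CPM at 2 h and 572.5, 564 and 819 CPM at 1 h (log2 1.24 ± 0.24, adjusted p = 0.0293). The last 300 transcript bases of the pair, the part that a 3' tag reads, were identical at 147 of 163 aligned bases, and the annotated GSTF2 gene overlaps AT4G02510 on the opposite strand over 1442 bases, so some reads of either could belong to the other gene.

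GSTU24 (AT1G17170), a tau class glutathione S-transferase, had 146, 58.8 and 111.9 CPM at 2 h, against 24.9, 37.1 and 28.4 CPM at 1 h (log2 1.78 ± 0.35, adjusted p = 0.0344). Its 2 h libraries spread more widely than its 1 h libraries, with 2 h replicate b the lowest of the later time. CYP81D8 (AT4G37370), a P450 gene known as a responder to oxidative stress, showed the same low value in replicate b, with 55.1, 18.6 and 42.7 CPM at 2 h and 11.1, 13.8 and 9.47 CPM at 1 h (log2 1.72 ± 0.35, adjusted p = 0.0439). GLYI7 (AT1G80160), of the glyoxalase I family that uses glutathione to remove methylglyoxal, averaged 20.9 ± 6.63 CPM at 2 h and 3.07 ± 0.66 CPM at 1 h (SD, n = 3 each; log2 2.84 ± 0.49, adjusted p = 0.0119). UGT75B1 (AT1G05560), a glucosyltransferase gene, averaged 71.6 ± 11.9 CPM at 2 h and 29.3 ± 11.6 CPM at 1 h (log2 1.37 ± 0.29, adjusted p = 0.0439), with an annotated lncRNA, AT1G05562, on the opposite strand over 2136 bases. NIT4 (AT5G22300), a nitrilase that disposes of the cyanoalanine formed from cyanide, had 31.9, 15.69 and 14.5 CPM at 2 h and 4.61, 4.35 and 4.74 CPM at 1 h (log2 2.26 ± 0.46, adjusted p = 0.0405). CYP710A1 (AT2G34500), a sterol desaturase that makes stigmasterol, averaged 94.7 ± 21.5 CPM at 2 h and 30.9 ± 15.1 CPM at 1 h (log2 1.50 ± 0.32, adjusted p = 0.0439). None of these groups of values overlapped between the times.

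Beside them, most members of the detoxification lists did not pass the test. These lists were chosen with earlier results of these data known. Over all genes tested 0.320% rose, 47.5% had a log2 fold change above 0 and the median was -0.02. Of 14 tau class glutathione S-transferases tested, 1 rose, 13 had a log2 fold change above 0 and the median was 0.85. Of 6 phi class members, 2 rose and the median was 0.42. Among 11 carbonyl reductases, P450s and exporters 2 rose (median 0.77), CYP81D8 and the sterol desaturase gene CYP710A1. Among 12 stress glucosyltransferases 1 rose (median 0.49). GSTU4 (AT2G29460) had 10, 2 and 6 counts at 2 h and 0 in all 1 h libraries, and was not called (adjusted p = 0.130). One tau class member pointed the other way without passing the test: GSTU20 (AT1G78370) had 27.8, 2.94 and 14.5 CPM at 2 h and 42.4, 44.0 and 30.0 CPM at 1 h (log2 -1.27 ± 0.42, adjusted p = 0.376).

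**Figure D2:**
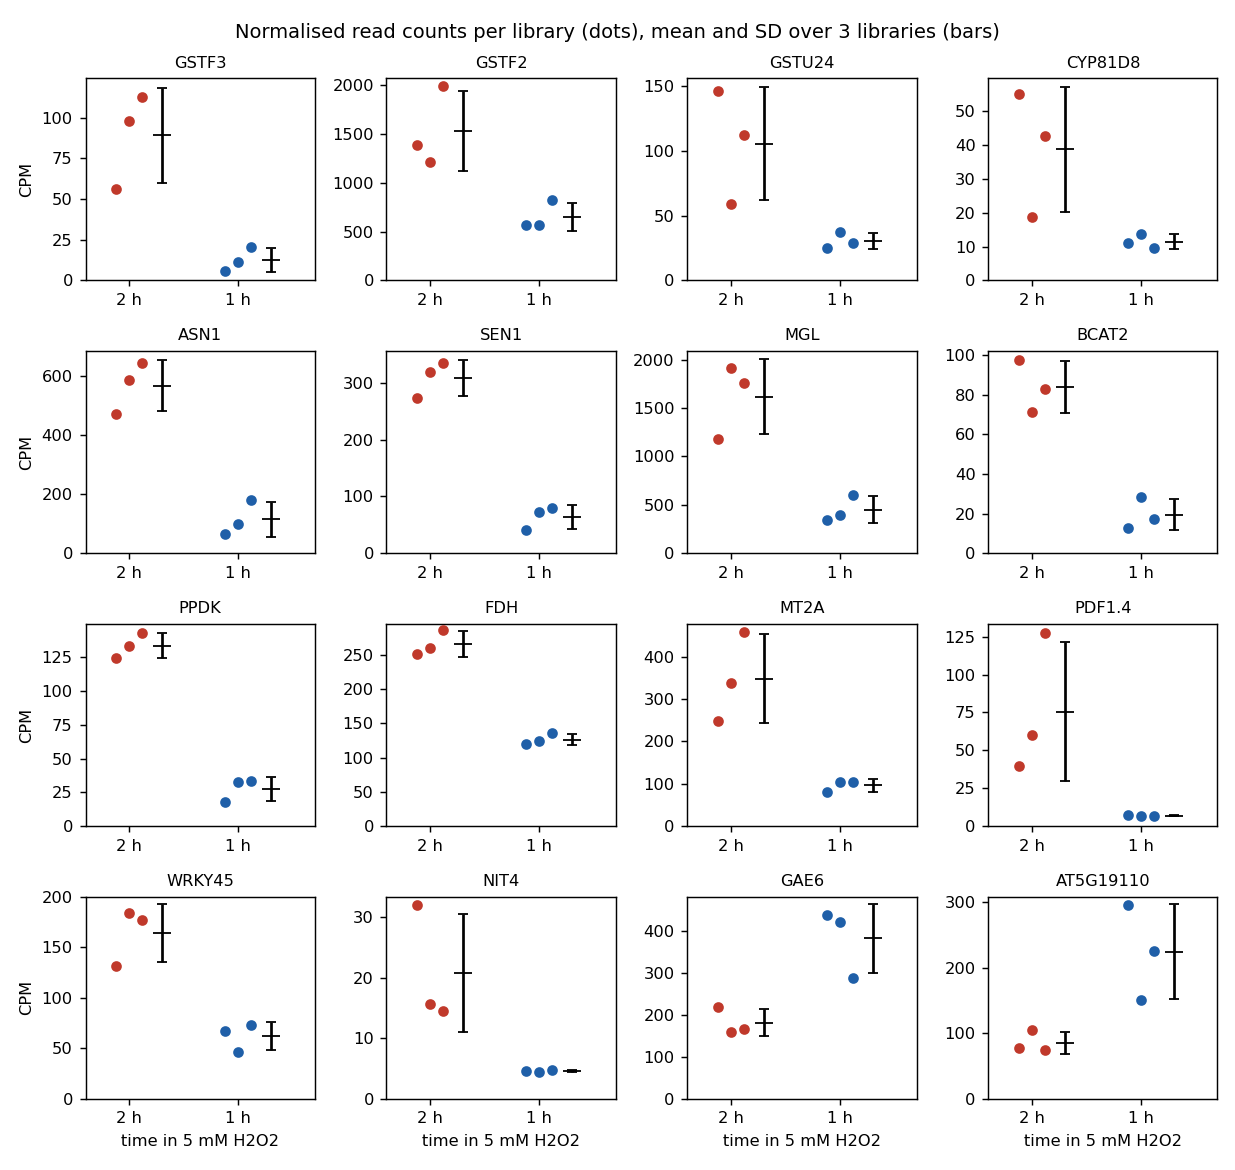
Dots are the CPM of single libraries (replicates a, b and c from left to right) after 2 h (red) and 1 h (blue) in 5 mM H2O2, with the mean and SD over 3 libraries in black; each y axis starts at 0. In each of the 16 called genes drawn the 2 times do not overlap, and GAE6 and AT5G19110 are lower at 2 h.

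Other genes called higher encode enzymes of nitrogen and carbon metabolism. ASN1 (AT3G47340, chromosome 3, 17437840 to 17441431, minus strand), which moves nitrogen from glutamine to asparagine and is known from darkened plants, had 472, 584 and 642 CPM at 2 h, against 65.5, 99.4 and 180.0 CPM at 1 h. The times did not overlap, with 1 h replicate c the highest of the earlier time (log2 2.33 ± 0.37, adjusted p = 0.00524). SEN1 (AT4G35770), a dark-induced and senescence-associated gene, had 273.8, 319.7 and 334.9 CPM at 2 h and 40.6, 72.9 and 78.9 CPM at 1 h (log2 2.27 ± 0.40, adjusted p = 0.0119). ASPGB1 (AT3G16150), an asparaginase, which releases the nitrogen of asparagine again, rose as well, to 281 ± 30.1 CPM at 2 h against 87.0 ± 16.6 CPM at 1 h (log2 1.68 ± 0.34, adjusted p = 0.0417).

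MGL, BCAT2 and IVD, which encode enzymes of amino acid breakdown, were called as well. MGL (AT1G64660), a methionine gamma-lyase that splits methionine, had 1177, 1912 and 1756 CPM at 2 h and 347, 390.5 and 606 CPM at 1 h (log2 1.86 ± 0.29, adjusted p = 0.00524). BCAT2 (AT1G10070), a transaminase of branched-chain amino acids, had 97.7, 71.6 and 82.9 CPM at 2 h and 12.9, 28.2 and 17.37 CPM at 1 h (log2 2.01 ± 0.35, adjusted p = 0.0119). IVD (AT3G45300), the mitochondrial dehydrogenase of leucine breakdown, averaged 175.7 ± 14.3 CPM at 2 h and 74.3 ± 9.12 CPM at 1 h (log2 1.25 ± 0.26, adjusted p = 0.0439). In the list of carbon starvation and branched-chain amino acid breakdown 3 of 10 genes tested rose (SEN1, BCAT2 and IVD), all 10 had a log2 fold change above 0, and the median was 0.97. Over all genes tested 0.320% rose and 47.5% were above 0. The list was chosen with earlier results of these data known, so its counts are a description. The members that did not pass include MCCB (AT4G34030), a subunit of the next enzyme of leucine breakdown, at 122, 174.5 and 150.4 CPM at 2 h and 66.4, 61.0 and 110.5 CPM at 1 h (log2 0.94 ± 0.28, adjusted p = 0.246). DIN10 did not separate the times, with 135.0 to 514.5 CPM at 2 h and 99.4 to 450.4 CPM at 1 h.

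PPDK (AT4G15530), which interconverts pyruvate and phosphoenolpyruvate, had 124.7, 133.4 and 143.5 CPM at 2 h, against 17.5, 32.6 and 33.1 CPM at 1 h (log2 2.25 ± 0.33, adjusted p = 0.00409). Its 2 h libraries lay close together and far above the 1 h libraries. FDH (AT5G14780), the mitochondrial formate dehydrogenase, had close replicates at both times, with 251, 261 and 287 CPM at 2 h and 119.8, 123.7 and 135.8 CPM at 1 h (log2 1.08 ± 0.19, adjusted p = 0.0119). AT3G60415, annotated as a phosphoglycerate mutase family member, averaged 39.6 ± 11.6 CPM at 2 h and 11.2 ± 4.03 CPM at 1 h (log2 1.95 ± 0.39, adjusted p = 0.0405). AT5G38200, annotated as a class I glutamine amidotransferase-like protein, had 509.5, 580.5 and 426 CPM at 2 h and 161, 199.7 and 192.6 CPM at 1 h (log2 1.45 ± 0.23, adjusted p = 0.00524). Of 16 tested genes of nitrate and ammonium uptake and assimilation, a list that holds ASN1, 1 rose (ASN1 itself), and the list median was -0.12.

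Small secreted and metal-binding proteins and a few regulators are encoded by further genes that rose. PDF1.4 (AT1G19610), of the defensin-like family of small cysteine-rich peptides, had 39.5, 59.8 and 127 CPM at 2 h, against 7.38, 6.72 and 6.32 CPM at 1 h. The 1 h libraries were almost level and the 2 h libraries spread widely above them (log2 3.44 ± 0.51, adjusted p = 0.00409; log2 2.85 without 2 h replicate c). MT2A (AT3G09390), a metallothionein that binds metal ions through cysteines, had 248.7, 338 and 458.7 CPM at 2 h and 79.3, 104.5 and 104.2 CPM at 1 h (log2 1.86 ± 0.27, adjusted p = 0.00409). A class III peroxidase gene, AT4G36430, averaged 160.3 ± 22.1 CPM at 2 h and 48.6 ± 15.6 CPM at 1 h (log2 1.67 ± 0.31, adjusted p = 0.0165). It stands outside the list of class III peroxidases, of which 0 of 14 tested passed and 9 were below 0, with a median log2 fold change of -0.18. WRKY45 (AT3G01970) was the 1 transcription factor of the WRKY list to rise, of 10 tested, with 131.9, 184 and 176.8 CPM at 2 h and 67.3, 46.0 and 72.6 CPM at 1 h (log2 1.44 ± 0.26, adjusted p = 0.0165); the list median was 0.10. AT1G73120, an F-box protein gene, had 30.0, 73.5 and 76.9 CPM at 2 h and 8.30, 5.73 and 6.32 CPM at 1 h (log2 3.17 ± 0.50, adjusted p = 0.00524). AT3G19920, a BTB/POZ domain protein gene, had the largest log2 fold change of the called genes, 3.63 ± 0.77, on few reads: 11, 7 and 14 counts at 2 h and 0, 4 and 0 counts at 1 h (adjusted p = 0.0439). All its 1 h reads lay in replicate b, and the fitted value without that library was 7.19, which is no bound. The call was kept in 1 of the 6 fits that left out a library and in 4 of the 9 other fits, some of which gave it no test.

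The other genes called higher were AT5G02160, AT1G21680, AT1G75600 (a histone family gene), AT4G37220 (a cold acclimation WCOR413 family gene), AT4G16000 and AT1G13990, with log2 fold changes of 1.00 to 2.33. AT1G75600 and AT4G37220 were low, at 10.9 ± 1.08 and 9.31 ± 2.18 CPM at 2 h against 1.75 ± 0.93 and 1.73 ± 0.14 CPM at 1 h, and AT1G75600 had a log2 fold change of 2.31, and of 3.18 without 1 h replicate b.

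The remaining pair of risen transcripts lies beside ribosomal DNA. AT3G06325, a noncoding RNA (chromosome 3, 14196558 to 14196865, plus strand), had 27.4, 51.0 and 68.3 CPM at 2 h and 5.53, 5.53 and 9.47 CPM at 1 h (log2 2.94 ± 0.47, adjusted p = 0.00524). AT2G01008 (chromosome 2, 1025 to 3173, plus strand) had 15.6, 21.6 and 25.6 CPM at 2 h and 3.69, 1.78 and 3.16 CPM at 1 h (log2 3.07 ± 0.58, adjusted p = 0.0238). In the RefSeq annotation they end 811 and 532 bases before an annotated 18S rRNA gene of the same strand. They are 98.1% identical over the 308 bases of AT3G06325, which also lies wholly opposite AT3G41762, so reads cannot be assigned to one of these loci with certainty.

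Only 4 genes fell. AT5G19110, an aspartyl protease family gene, had 77.2, 104.9 and 74.3 CPM at 2 h, against 296, 151 and 226 CPM at 1 h (log2 -1.39 ± 0.25, adjusted p = 0.0122). GAE6 (AT3G23820), an epimerase that makes the UDP-galacturonate of pectin, had 218.6, 158.8 and 167.4 CPM at 2 h and 438, 422 and 287 CPM at 1 h (log2 -1.07 ± 0.21, adjusted p = 0.0293). In both the lowest 1 h library was still above the highest 2 h library. TPR12 (AT1G78120), a tetratricopeptide repeat protein gene, had 15.6, 14.7 and 14.5 CPM at 2 h and 52.6, 32.8 and 34.7 CPM at 1 h (log2 -1.40 ± 0.29, adjusted p = 0.0439). The protein kinase gene AT3G07070 had 4.56, 5.88 and 4.27 CPM at 2 h and 12.9, 16.4 and 36.3 CPM at 1 h (log2 -2.07 ± 0.44, adjusted p = 0.0439).

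Set along the whole series, the genes that rose did not start from one place. The water and 3 h values below are a description, since the 1 h and 2 h libraries that chose the genes are part of it. In 10 of the 32 risen genes all 1 h libraries lay below all water libraries, in 10 they lay above them, and in 12 they overlapped; over all genes tested these shares were 11.6% below and 14.2% above. MT2A is an example of the genes that were low at 1 h, with a mean of 357 ± 32.5 CPM in water, 96.0 ± 14.5 at 1 h, 349 ± 105.4 at 2 h and 819.5 ± 299.9 at 3 h of H2O2. FDH ran likewise, with 241.5 ± 15.3, 126 ± 8.31, 266 ± 18.6 and 459 ± 50.4 CPM in the same order of times. In both, the 2 h mean was near that of water and the 1 h mean below it.

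Genes of the other kind were already above water at 1 h. UGT75B1 averaged 3.17 ± 1.20 CPM in water, 29.3 ± 11.6 at 1 h, 71.6 ± 11.9 at 2 h and 83.3 ± 4.66 at 3 h. AT3G06325 averaged 1.06 ± 0.21, 6.84 ± 2.28, 48.9 ± 20.6 and 153.6 ± 89.8 CPM in the same order. ASN1 stood between both kinds, with 117.5 ± 63.8 CPM in water, 114.9 ± 58.8 at 1 h, 566 ± 86.5 at 2 h and 1014 ± 226 at 3 h. The 3 h mean was above the 2 h mean in 30 of the 32 risen genes, the exceptions being CYP710A1 and AT1G21680, and in 50.8% of the genes tested.

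Of the 4 genes that fell, AT5G19110, GAE6 and TPR12 had all 1 h libraries above all water libraries. AT5G19110 averaged 23.62 ± 2.58 CPM in water, 224 ± 72.4 at 1 h, 85.5 ± 16.9 at 2 h and 45.5 ± 7.67 at 3 h. GAE6 averaged 178.7 ± 11.7 CPM in water, 382 ± 82.7 at 1 h, 181.6 ± 32.3 at 2 h and 152.4 ± 18.4 at 3 h, so its 2 h mean was close to that of water. AT3G07070 was lower at each time up to 2 h, with 46.3 ± 6.86 CPM in water, 21.9 ± 12.6 at 1 h, 4.91 ± 0.86 at 2 h and 9.09 ± 0.99 at 3 h.

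**Figure D3:**
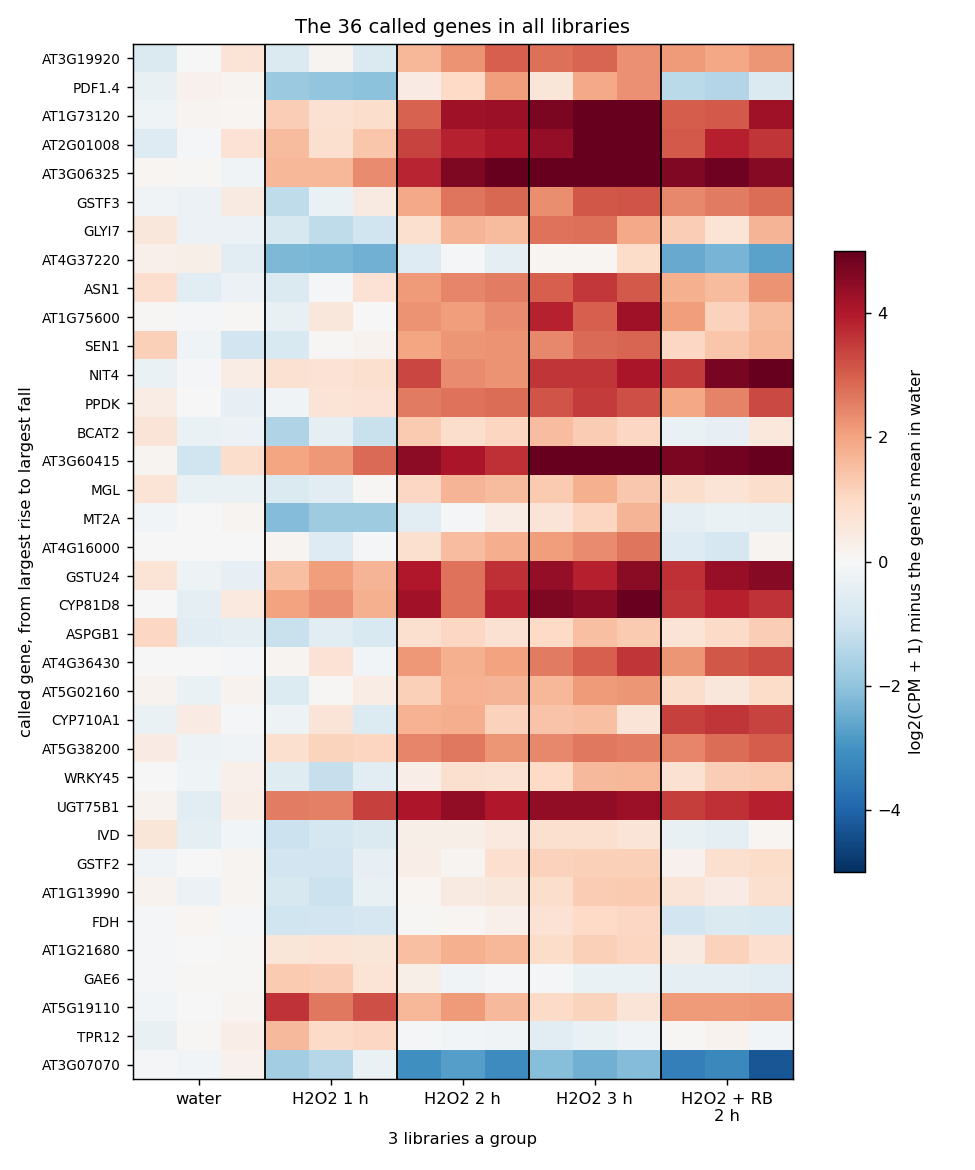
Rows are the 36 called genes from the largest rise to the largest fall, columns the 15 libraries by group, and colour the log2(CPM + 1) of a library minus the gene's mean in water, drawn up to 5 either way. Genes such as MT2A, FDH and AT4G37220 are blue at 1 h and pale at 2 h, whereas UGT75B1, AT3G60415 and CYP81D8 are already red at 1 h.

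The 2 contrasts that use none of the 6 libraries were 3 h of H2O2 against water and H2O2 with RB for 2 h against water. In the same model, 3 h against water called 3048 genes (30.5%), with 16.2% of genes higher and 14.4% lower. Of the 32 genes that rose between 1 h and 2 h, 31 were also higher at 3 h than in water, and the other, AT4G37220, was not called there (log2 0.33 ± 0.34, adjusted p = 0.588). Among the largest were AT3G06325 (log2 7.04 ± 0.53, adjusted p = 1.84e-08), AT3G60415 (log2 6.55 ± 0.49, adjusted p = 1.79e-08) and CYP81D8 (log2 5.43 ± 0.42, adjusted p = 2.82e-08). ASN1 was at log2 3.11 ± 0.37 (adjusted p = 4.76e-06) and GSTF3 at 3.01 ± 0.36 (adjusted p = 4.39e-06), beside 2.33 and 2.92 for 2 h over 1 h. IVD was the smallest of the 31, at log2 0.67 ± 0.25 (adjusted p = 0.0483). Of the 4 genes that fell, AT3G07070 was lower than in water at 3 h (log2 -2.33 ± 0.36, adjusted p = 8.90e-05), AT5G19110 was higher (log2 0.96 ± 0.26, adjusted p = 0.00790), and GAE6 and TPR12 were not called (adjusted p = 0.426 and 0.339).

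**Figure D4:**
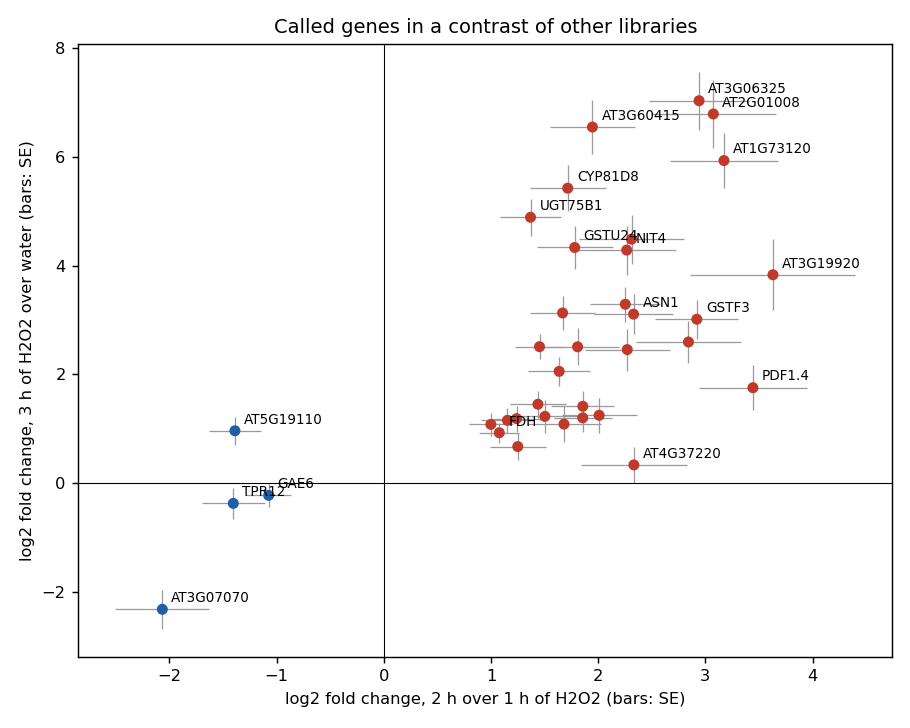
Each of the 36 called genes is placed by its log2 fold change of 2 h over 1 h of H2O2 (x axis) and of 3 h of H2O2 over water (y axis), with SE bars; the contrasts share no library. All 32 red points (higher at 2 h) lie above 0 on the y axis, while AT5G19110 is the blue point above 0.

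With RB added for 2 h, 2120 genes differed from water (21.2%), with 11.6% higher and 9.62% lower. Of the 32 risen genes 21 were higher in H2O2 with RB than in water, 9 were not called and 2 were lower. The 2 lower genes were FDH (log2 -0.81 ± 0.18, adjusted p = 0.00276) and AT4G37220 (log2 -3.32 ± 0.45, adjusted p = 2.16e-05). Both had low values at 1 h of H2O2 alone as well. NIT4 averaged 75.6 CPM with RB and 20.7 CPM at 2 h without it, and CYP710A1 averaged 346.5 CPM with RB and 94.7 CPM at 2 h without it; these means are set side by side and their difference was not tested here. MT2A, BCAT2, IVD, MGL and PDF1.4 were among those not called against water in H2O2 with RB (log2 -0.39 ± 0.26, -0.05 ± 0.32, -0.31 ± 0.25, 0.74 ± 0.29 and -1.15 ± 0.44, with adjusted p = 0.323, 0.940, 0.429, 0.0738 and 0.0683). Their rise was measured from 1 h of H2O2, whereas this contrast was measured from water. At 2 h without RB, MT2A averaged 348.6 CPM and IVD 175.7 CPM, against 356.8 and 145.3 CPM in water. BCAT2, MGL and PDF1.4 averaged 84.05, 1615 and 75.55 CPM there, against 40.83, 614.7 and 29.76 CPM in water. How these genes differed with and without RB was not tested here.

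Small heat shock proteins, which keep unfolding proteins from clumping, had larger values at 2 h without passing the test. None of the 8 cytosolic small heat shock protein genes tested was called, yet in all 8 the 2 h libraries lay above the 1 h libraries (the times did not overlap, in either direction, in 10.9% of the genes tested) and the log2 fold changes ran from 0.84 to 1.63, with a median of 1.38. HSP17.6A (AT5G12030) shared the lowest adjusted p of the genes not called with AT1G19530, which had 281, 261 and 431 CPM at 2 h and 84.8, 112.0 and 165.8 CPM at 1 h. HSP17.6A had 859, 846 and 1386 CPM at 2 h, against 276, 319 and 406 CPM at 1 h (log2 1.63 ± 0.36, adjusted p = 0.0529). It passed in 6 of the 9 alternatives that kept all libraries of both times, DESeq2 among them (adjusted p = 0.00236), and in 0 of the 6 that left one out. Over the alternatives its adjusted p ran from the DESeq2 value to 0.412, the highest without 1 h replicate a. With DESeq2, 7 of the 8 genes passed, all but AT1G59860 (adjusted p = 0.493). HSP17.4 (AT3G46230) had 1114, 1909 and 2274 CPM at 2 h and 672, 462 and 890.4 CPM at 1 h (log2 1.39 ± 0.37, adjusted p = 0.160). Summed over the 8 genes, the level was 5137, 6186 and 8183 CPM at 2 h and 2393, 2241 and 3167 CPM at 1 h.

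Of 4 small heat shock proteins of organelles none was called, with a median log2 fold change of 1.32 and a lowest adjusted p of 0.0779. HSP22 (AT4G10250), of the endoplasmic reticulum, had 58.2, 50.0 and 72.6 CPM at 2 h and 15.67, 23.1 and 25.3 CPM at 1 h. Large chaperones had a lower median of 0.46, with 16 of 19 above 0 and 0 of 19 passing. Their summed level overlapped, at 10600, 12970 and 13450 CPM at 2 h and 13580, 9078 and 14890 CPM at 1 h. HSC70-1 (AT5G02500), the most abundant member, averaged 7274 CPM at 2 h and 8719 CPM at 1 h (log2 -0.26 ± 0.24). HSP101 (AT1G74310), which pulls aggregated proteins apart, was at 0.54 ± 0.24 (adjusted p = 0.676). The heat shock factors, a family that regulates heat shock protein genes, had a median of 0.20 over 7 genes. HSFA2 (AT2G26150) averaged 25.6 CPM at 2 h and 18.8 CPM at 1 h (log2 0.44 ± 0.31, adjusted p = 0.956; -0.19 when thinned to equal depth). At 3 h against water all 12 small heat shock protein genes were higher, beside 16.2% of all genes tested, with list medians of 6.36 and 7.21.

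Extensin genes and genes of the root hair and its wall had lower values at 2 h, again without a call. Of 10 extensin genes tested, which encode the hydroxyproline-rich proteins that crosslink the wall, all had a log2 fold change below 0 with a median of -1.75, and none passed (lowest adjusted p 0.450). Without 2 h replicate a the median was -2.59, and without any one of the other libraries it was -1.99 to -1.37. Extensin genes are repetitive and alike, so reads may be split among them. EXT3 (AT1G21310), the member with the highest CPM, had 2899, 1177 and 563 CPM at 2 h and 2687, 2918 and 1268 CPM at 1 h, so its times overlapped and replicate c was the lowest of both (log2 -0.57, and -1.37 without 2 h replicate a). EXT1 (AT1G76930) had the same order, with 1779, 766 and 335 CPM at 2 h and 1630, 2002 and 723 CPM at 1 h. Of 11 root hair regulators and wall genes all were below 0, with a median of -1.10. Beside both of these lists, 47.5% of all genes tested were above 0. The 11 root hair genes were low, with a summed CPM of 99.6, 123.5 and 81.2 at 2 h and 213.0, 211.2 and 198.9 at 1 h. EXPA7 (AT1G12560), an expansin of root hair cells, had 1.52, 4.90 and 0.85 CPM at 2 h and 11.98, 7.31 and 4.74 CPM at 1 h. Its times overlapped, on few reads: 4, 5 and 1 counts at 2 h and 13, 37 and 3 counts at 1 h. Its log2 fold change was -1.89 ± 0.65 (adjusted p = 0.416), and -2.59 without 2 h replicate b. XTH14 (AT4G25820), an enzyme that cuts and rejoins xyloglucan, had 22.05, 49.0 and 39.3 CPM at 2 h and 80.2, 70.9 and 112.1 CPM at 1 h (log2 -1.27 ± 0.42, adjusted p = 0.374).

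Arabinogalactan proteins, glycoproteins of the cell surface, had a median of -0.48 over 12 genes. The member with the lowest adjusted p was AGP3 (AT4G40090), with 24.7, 43.1 and 20.5 CPM at 2 h and 117, 121 and 162.6 CPM at 1 h (log2 -2.20 ± 0.53, adjusted p = 0.0970). AGP4 (AT5G10430) was at 465, 677.5 and 314 CPM at 2 h and 1221, 763 and 985 CPM at 1 h (log2 -1.03 ± 0.31, adjusted p = 0.265). In both the times did not overlap. At 3 h against water all 10 extensin genes and 9 of the 11 root hair genes were lower, beside 14.4% of all genes tested.

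**Figure D5:**
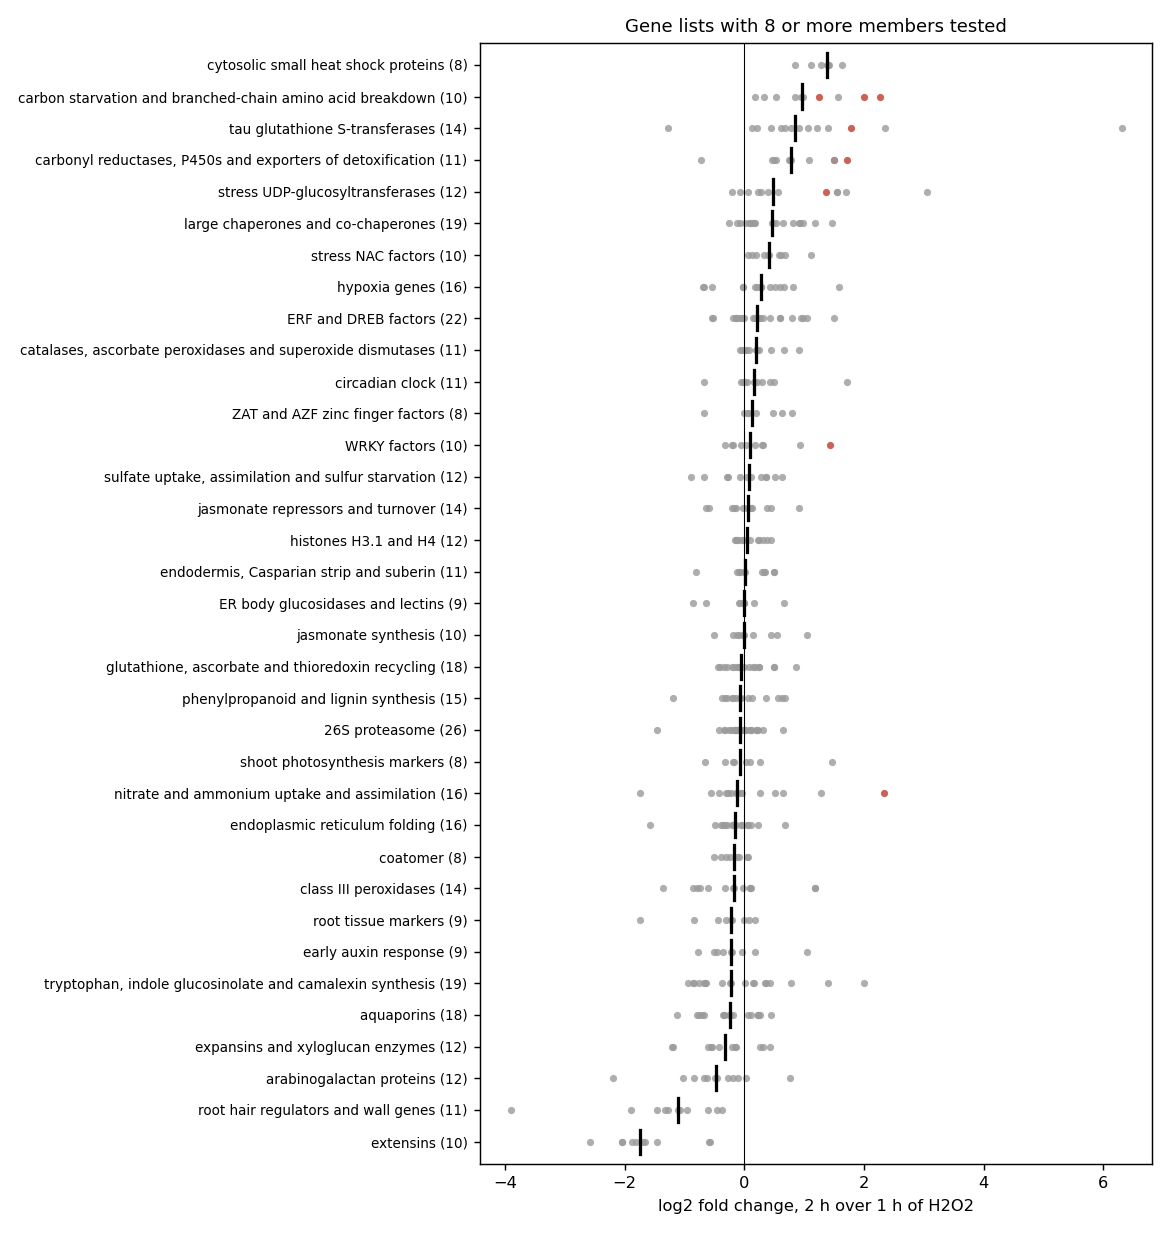
Each row is a gene list with 8 or more members tested (their number in brackets), each dot the log2 fold change of 1 member, 2 h over 1 h of H2O2, with called members in red, and each black bar the list's median. The medians run from 1.38 for cytosolic small heat shock proteins to -1.75 for extensins, and the dot farthest to the right is GSTU4, which had no reads at 1 h and whose fitted fold is no bound.

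The genes of early signalling named here did not pass the test. The ethylene response factor gene RRTF1 (AT4G34410, also ERF109), a rapid responder to oxidants and wounding, averaged 148.7 CPM at 2 h and 164 CPM at 1 h (log2 -0.14 ± 0.29, adjusted p = 1.00). WRKY33 (AT2G38470) averaged 254 and WRKY40 (AT1G80840) 209.9 CPM at 2 h, against 225 and 241 CPM at 1 h, and neither passed. Over the 22 ERF and DREB factors the median log2 fold change was 0.22, over 10 stress NAC factors 0.41 and over 8 ZAT and AZF zinc finger factors 0.13, with no call among them; the last of these was -0.03 without 1 h replicate b. ZAT12 (AT5G59820), a zinc finger factor of the oxidative response, averaged 797.5 CPM at 2 h and 460.4 CPM at 1 h with no overlap (log2 0.79 ± 0.32, adjusted p = 0.582). ZAT10 (AT1G27730), the most abundant member of that list, averaged 2141 CPM at 2 h and 2046 CPM at 1 h, with overlap (log2 0.07 ± 0.25).

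Enzymes that remove H2O2 or superoxide also stayed below the threshold: 0 of 11 catalases, ascorbate peroxidases and superoxide dismutases passed and the median was 0.19. CAT1 (AT1G20630) averaged 92.7 CPM at 2 h and 59.4 CPM at 1 h (log2 0.66 ± 0.22, adjusted p = 0.400), and CAT2 (AT4G35090) 116.7 CPM at 2 h and 97.3 CPM at 1 h (log2 0.25 ± 0.25, adjusted p = 1.00). APX2 (AT3G09640) averaged 24.1 CPM at 2 h and 13.5 CPM at 1 h (log2 0.91 ± 0.32, adjusted p = 0.444), whereas APX1 (AT1G07890) averaged 1258 CPM at 2 h and 1226 CPM at 1 h (log2 0.04 ± 0.25, and -0.17 without 2 h replicate a or -0.10 without 1 h replicate c). The oxylipin reductase gene OPR1 (AT1G76680) averaged 2677 CPM at 2 h and 1553 CPM at 1 h, with overlap (log2 0.79 ± 0.28, adjusted p = 0.462). The alternative oxidase gene AOX1A (AT3G22370) was at 34.1 CPM at 2 h and 22.1 CPM at 1 h (log2 0.51 ± 0.45, adjusted p = 1.00). Its direction turned without 2 h replicate a (log2 -0.23), and it was at 1.26 without 1 h replicate b. The cell cycle inhibitor gene SMR5 (AT1G07500) was at 17.1 CPM at 2 h and 11.54 CPM at 1 h (log2 0.68 ± 0.44, adjusted p = 0.925). A p above the threshold does not show that these levels were equal.

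Over all 45 lists, 12 of the 493 members tested were called (2.43%, against 0.361% of all genes tested), in 8 lists. With DESeq2, 29 members were called, with only the libraries of the 2 groups 7, and when thinned to equal depth 4. The lists were chosen with earlier results of these data known, so the higher share is no result about them. Of the 36 called genes, 24 were in no list. Lists with medians close to 0 and no call included the 26S proteasome (26 genes, median -0.07), histones H3.1 and H4 (12 genes, 0.04), glutathione, ascorbate and thioredoxin recycling (18 genes, -0.05), jasmonate synthesis (10 genes, -0.01) and the endodermal and suberin genes (11 genes, 0.01). The signs of the proteasome, histone and jasmonate medians turned when some single libraries were left out. That of glutathione, ascorbate and thioredoxin recycling turned in every such fit, where its median was 0.018 to 0.139. The endodermal and suberin median kept its sign there, at 0.0799 to 0.206. Aquaporins, the water channels of the root, had a median of -0.24 over 18 genes with no call.

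The 300 bases before the annotated start of each gene were searched on both strands for 7 motifs in the TAIR10.1 RefSeq genome. The promoter of AT2G01008 is mostly unread bases, and it and 1 other promoter with such bases were left out. The G box CACGTG, bound by bZIP and bHLH factors, was in 8 of the 31 remaining promoters of risen genes (25.8%) and in 8.38% of 9960 promoters of genes tested. These 8 were ASN1, MGL, WRKY45, CYP81D8, AT1G73120, GLYI7, AT4G16000 and AT4G37220. The W box, TTGACC or TTGACT, was in 13 of the 31 (41.9%) and in 31.9% of all. The mitochondrial dysfunction motif was in 2, CYP710A1 and CYP81D8 (6.45%, and 1.47% of all). The GCC box GCCGCC was in 1, NIT4 (3.23%, and 2.43% of all), and the ABRE-like ACGTGTC, whose letters can overlap a G box, in 2, BCAT2 and AT4G37220 (6.45%, and 4.72% of all). The heat shock element and the as-1 core, the latter searched only in longer forms, were in none of the 31, and in 0.592% and 1.72% of all. The shorter as-1 letters tgacg were not counted, and they do occur in promoters of risen genes, among them GSTU24, NIT4 and BCAT2. No test was made, and the letters alone say nothing of a factor's binding.

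The promoters of 4 genes are shown because they hold the G box and come from different groups of risen genes, and they were picked after their values were seen. They are read 5′ to 3′ on the gene's strand and end at the base before the annotated start, with the motifs in capitals: the G box in all, W boxes on either strand in WRKY45 and CYP81D8, and the mitochondrial dysfunction motif in CYP81D8, in the run of capitals that begins with CTTG.
ASN1 (chr3:17441432-17441731, minus strand): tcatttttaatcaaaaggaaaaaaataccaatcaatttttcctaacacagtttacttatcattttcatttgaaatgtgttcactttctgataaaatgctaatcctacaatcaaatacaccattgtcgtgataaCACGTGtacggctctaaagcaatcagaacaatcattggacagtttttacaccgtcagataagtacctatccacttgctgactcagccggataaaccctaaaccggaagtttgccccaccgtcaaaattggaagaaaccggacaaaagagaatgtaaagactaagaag
MGL (chr1:24028530-24028829, plus strand): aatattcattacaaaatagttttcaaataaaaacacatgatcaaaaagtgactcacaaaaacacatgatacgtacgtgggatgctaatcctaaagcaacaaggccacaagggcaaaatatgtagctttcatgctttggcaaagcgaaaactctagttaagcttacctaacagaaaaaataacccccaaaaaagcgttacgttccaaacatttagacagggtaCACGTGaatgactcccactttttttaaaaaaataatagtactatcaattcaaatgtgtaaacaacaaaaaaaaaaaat
WRKY45 (chr3:327413-327712, minus strand): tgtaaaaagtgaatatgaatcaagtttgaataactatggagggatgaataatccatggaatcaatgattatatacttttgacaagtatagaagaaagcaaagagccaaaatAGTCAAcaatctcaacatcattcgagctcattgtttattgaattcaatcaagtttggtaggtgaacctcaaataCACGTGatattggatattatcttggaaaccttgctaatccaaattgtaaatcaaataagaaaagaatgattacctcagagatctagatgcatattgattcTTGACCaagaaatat
CYP81D8 (chr4:17571744-17572043, minus strand): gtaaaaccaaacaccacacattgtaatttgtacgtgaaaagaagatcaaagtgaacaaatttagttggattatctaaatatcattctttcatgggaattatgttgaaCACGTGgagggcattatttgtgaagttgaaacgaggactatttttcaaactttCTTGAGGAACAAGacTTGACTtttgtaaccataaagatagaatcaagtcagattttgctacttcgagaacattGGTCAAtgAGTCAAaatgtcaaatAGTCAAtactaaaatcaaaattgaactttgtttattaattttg
The first base of the G box lies 167 bases before the start of ASN1, 78 before MGL, 115 before WRKY45 and 193 before CYP81D8.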

How the data were processed

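The deposited table holds raw read counts per gene for 15 root libraries, made by the authors. Tools in the submitters' processing notes are HTSeq, STAR 2.4.2a, DESeq2, cutadapt and bcl2fastq. Genome build, strand use in counting and the handling of unique molecular identifiers: not given in the sources used here. Counting error may therefore understate the error in molecules. Another 30 per-sample columns of values normalised by the authors were not used. For this comparison the authors' deposited log2 fold changes and adjusted p-values entered no fit.

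Groups came from the sample titles and treatment labels. The counts went into edgeR 4.0.16 (R 4.3.3): filterByExpr (minimum count 10, minimum total 15) left 9986 genes and set 4546 aside, TMM scaled the libraries, and 1 robust quasi-likelihood model (glmQLFit, glmQLFTest, two-sided) held all 15 libraries in 5 groups with 10 residual degrees of freedom. P-values were adjusted over all genes tested by Benjamini-Hochberg, and genes with a value under 0.05 were called. CPM are TMM-scaled, and the SE was taken as the size of the log2 fold change divided by the square root of F. The fit was tested on simulated data. DESeq2 1.42.0, other scalings and filters, a replicate block, the library total as a covariate, thinning and leaving out each library were the alternatives. Replicates differed beyond sampling noise (chi-square over its degrees of freedom 3.98 to 13.9).

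Named genes were drawn from the 15 largest changes each way among called genes whose groups did not overlap and reached 20 CPM, up to 4 called members of each list, the most abundant member of lists with none, 16 stress genes chosen by name, and the 5 most abundant called genes. Of the most abundant members of lists with none, only some are named in the text. Other genes named were chosen after their values were seen. The members and the 45 lists were chosen with earlier results of these data known. Gene names and positions come from RefSeq (TAIR10.1), which matched 14497 of 14532 identifiers.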

Additional observations from a re-analysis of the deposited data

How the results depend on the processing

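The 36 genes called between 2 h and 1 h of H2O2 came to 75 with the log2 library total as a covariate (chosen after seeing the data, 64 higher and 11 lower, with all 36 kept), to 87 with DESeq2 (73 higher and 14 lower, 35 kept), to 18 with only the libraries of the 2 groups (14 kept) and to 10, all higher, when every library was thinned to 689372 counts. Leaving out 1 library at a time gave 0 to 25 calls. The list members called were 12, and 24, 29, 7 and 4 in the same order, with 0 to 8 when 1 library was left out. With the other scalings and filters the calls between 2 h and 1 h were 35 to 38. Called genes kept under all 9 alternatives that left out no library numbered 9, and GSTF3, PDF1.4, PPDK, MT2A, ASN1, MGL, AT5G38200 and BCAT2 were called in each fit that left out 1 library but that without 1 h replicate a. The 3048 genes of 3 h against water came to 1025 when thinned and to 2148 to 2962 when 1 library was left out, and the 2120 genes of H2O2 with RB against water to 830 and to 1586 to 1784. Thinning removes reads; the cause of the other shifts was not tested.

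Replicate letters were not taken as pairs: deviations of same-lettered 2 h and 1 h libraries correlated at -0.133, -0.317 and 0.341, and 2 h replicate a was closest to 1 h replicate b (0.635). These were the deepest libraries of their times, with 2456784 and 4464761 counts. With the shallowest, 1 h replicate c, 2 h replicate a correlated at -0.503. The part of depth in this was not tested. With the replicate block 42 genes were called (40 higher and 2 lower, 30 of the 36 kept), 17 of them list members, 2894 genes for 3 h against water and 2055 for H2O2 with RB against water.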

Other observations

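In the authors' deposited table, 172 genes had an adjusted p under 0.05 for this pair of times, 130 of them higher at 2 h and 42 lower, and all 36 genes called here were among them (20.9% of the 172). The authors' deposited fold change is written as 1 h over 2 h and was turned round for this count.

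Single libraries carried some of the largest differences that were not called. AT2G03370 had 91 counts (89.2 CPM) in 2 h replicate b and 0 in the other 5 libraries (adjusted p = 0.915). AT2G07870 had 69 counts in 1 h replicate b, 2 in 2 h replicate c and 0 in the other 4 (adjusted p = 0.864).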
